A study of Homo sapiens with 27 samples.

Results

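Levels of mRNA and ribosome footprints were examined for 10 genes of 2 groups of chromatin proteins, the high mobility group (HMG) proteins and the variant histones of the H2A family. The genes were picked by family name, with earlier results of these data known, and were found by symbol among the 60534 gene IDs that every library listed. They were HMGB1, HMGB2 and HMGB3, HMGA1 and HMGA2, HMGN1 and HMGN2, and the variant histone genes H2AZ1, H2AX and MACROH2A1. The genes were measured in IMR90, an established line of diploid fetal lung fibroblasts that stop dividing under lasting DNA damage. The 27 libraries were 13 of RNA-seq and 14 of Ribo-seq, which counts the mRNA fragments that ribosomes shield from RNase. All cells were labelled wild type, except that the thapsigargin samples carried no genotype label. One label of the thapsigargin samples calls all 4 of them ribosome-protected fragments, RNA-seq included, and their titles were followed here. The 2 libraries titled RNA-seq had 5.32% and 7.07% of their stranded gene counts on the strand opposite to the one counted. In the other RNA-seq libraries this share was 5.59% to 10.6%, so replicate 2, at 5.32%, lay just below them.

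The cells were in 5 states. Untreated cycling cells had reached 40% to 60% confluency (2 RNA-seq and 3 Ribo-seq libraries). Quiescent cells had stopped dividing by contact inhibition (3 and 3). Irradiated cells were senescent after 15 Gy of ionizing radiation, 10 days before harvest (3 and 3), and etoposide cells were senescent after 3 treatments with 50 µM of this topoisomerase II poison over 10 days (3 and 3). Thapsigargin cells were cycling cells given 25 nM of this blocker of the calcium pump of the endoplasmic reticulum for 3 h (2 and 2). Nothing in the labels says whether libraries of a state came from separate cultures, so p-values measure the spread between these libraries, which may be technical. The 4 comparisons with cycling cells share the cycling libraries.

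HMGB proteins bend DNA through HMG boxes and, once released from cells, act as alarm signals. HMGA proteins bind the minor groove of AT-rich DNA through AT hooks, and HMGA proteins have been found in senescence-associated heterochromatin. HMGN proteins bind nucleosomes and loosen their packing. H2A.Z marks promoters, H2AX is phosphorylated around DNA breaks, and macroH2A carries a large globular domain and is enriched in silent chromatin. Unlike the replication-dependent histone genes, H2AZ1 and MACROH2A1 are transcribed outside S phase too. Loss of HMGB1 and HMGB2 from the nucleus has been described in senescent fibroblasts.

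Promoter sequences from RefSeq (GRCh38.p14) were held for 8 of the 10 genes, at 13 starts. The 250 bases before the start are shown for the 4 genes with a single start whose mRNA fell in etoposide cells, H2AZ1, H2AX, HMGN1 and HMGN2, since the number of CCAAT boxes in them differed. Capitals mark the CCAAT box (read as ATTGG on the other strand), the TATA box TATAAA and the cell cycle homology region TTTGAA (read as TTCAAA on the other strand). The windows are chr4:99950276-99950525 on the minus strand for H2AZ1, chr11:119095466-119095715 on the minus strand for H2AX, chr21:39349089-39349338 on the minus strand for HMGN1 and chr1:26472190-26472439 on the plus strand for HMGN2.
H2AZ1: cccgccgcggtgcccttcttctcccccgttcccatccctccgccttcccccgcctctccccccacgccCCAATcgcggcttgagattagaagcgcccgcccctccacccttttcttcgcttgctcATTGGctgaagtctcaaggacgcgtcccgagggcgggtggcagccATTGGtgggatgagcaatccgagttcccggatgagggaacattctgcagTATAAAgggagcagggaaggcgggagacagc
H2AX: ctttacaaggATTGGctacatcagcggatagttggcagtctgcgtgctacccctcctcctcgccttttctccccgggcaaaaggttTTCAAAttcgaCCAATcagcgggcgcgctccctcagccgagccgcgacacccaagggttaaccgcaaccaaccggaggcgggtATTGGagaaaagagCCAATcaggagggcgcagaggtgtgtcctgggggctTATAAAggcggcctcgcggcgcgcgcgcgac
HMGN1: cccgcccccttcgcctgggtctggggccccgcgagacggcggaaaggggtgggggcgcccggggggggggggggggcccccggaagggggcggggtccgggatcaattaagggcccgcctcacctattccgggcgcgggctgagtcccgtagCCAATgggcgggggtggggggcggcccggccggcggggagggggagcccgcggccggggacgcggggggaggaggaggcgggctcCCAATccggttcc
HMGN2: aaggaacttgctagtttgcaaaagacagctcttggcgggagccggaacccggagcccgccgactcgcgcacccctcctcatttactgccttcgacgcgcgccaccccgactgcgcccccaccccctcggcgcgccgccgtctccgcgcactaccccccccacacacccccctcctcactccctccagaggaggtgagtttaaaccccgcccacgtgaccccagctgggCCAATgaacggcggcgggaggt

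CCAAT, on either strand, occurred 3 times in the H2AZ1 window, 4 times in H2AX, 2 times in HMGN1 and 1 time in HMGN2. Over the 22199 promoters of protein-coding genes in the RefSeq table, 32.7% held at least 1 CCAAT in a window of this length and 10.5% held 2 or more. H2AZ1 and H2AX each held TATAAA, which was in 9.0% of promoters, 31 bases before the start. H2AX also held the reverse of TTTGAA, a motif found in 11% of promoters, 164 bases before the start. The genes with several starts differed between them: the 3 HMGB1 starts held 3, 1 and 0 CCAAT, the 2 of HMGB3 held 3 and 0, the 2 of HMGA1 held 0 and 1, and the 2 of MACROH2A1 held 0 and 2. TTTGAA also lay 246 bases before the HMGB1 start with 1 CCAAT and 172 bases before the HMGB3 start with 3. The 4 windows and the other 9 held none of the 5 further motifs searched on both strands, which were the CHR variant TTCGAA (in 1.27% of promoters), the E2F sites TTTCGCGC (0.608%), TTTGGCGC (0.685%) and TTCCCGCC (3.48%), and the CRE site TGACGTCA (2.01%). A match of letters describes the window only, since binding was not measured here.

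Gene counts ran from 20635503 to 57119841 per library in RNA-seq and from 1936976 to 19996104 in Ribo-seq. The 9 fibroblast marker genes summed to between 9020 and 14624 counts per 1000000 counts (CPM) in the RNA-seq libraries, and the epithelial, endothelial and blood marker lists each summed to at most 2.62 CPM there. The summed RNA level of 14 proliferation genes was 1444 to 1573 CPM in cycling cells and 580.0 to 901 CPM in quiescence. It was 279 to 306 after radiation, 256 to 284 after etoposide and 1244 to 1331 CPM under thapsigargin. The thapsigargin libraries stood apart from the rest. Unmapped reads made up 1.35% and 1.40% of their RNA-seq reads, against 27.8% to 40.6% in the other states, and reads mapping to several places made up 65.2% and 66.9% of their Ribo-seq reads, against 19.8% to 31.9%. Their medium was described without antibiotics, and their Ribo-seq files followed another gene list (62703 IDs) than the other Ribo-seq files (60664 IDs). Summed fibroblast markers in Ribo-seq were 12436 to 12984 CPM in thapsigargin cells and 35737 to 37414 CPM in cycling cells, and 8 of the 9 fell there. The treatment and these differences cannot be told apart.

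All 10 genes passed the filter on low counts in both assays. A gene was called changed at a Benjamini-Hochberg adjusted p under 0.05 in edgeR's quasi-likelihood test, over 13312 genes in RNA-seq and 11760 in Ribo-seq. In senescent cells the set was mostly lower. In RNA-seq, 8 of the 10 genes fell in irradiated cells, where 18.7% of all genes were called lower and 16.1% higher. In etoposide cells 9 of 10 fell, where 17.8% were called lower and 16.8% higher. The median log2 fold change of the 10 was -1.11 after radiation and -1.46 after etoposide, beside medians over all genes of 0.03 and 0.00. In Ribo-seq, 8 fell after radiation (22.6% of all genes were called lower and 17.2% higher) and 9 after etoposide (17.6% and 16.4%), with medians of -1.01 and -1.14. None of the 10 rose in either senescent state in either assay, and HMGA2 was the 1 gene called in neither state, though its etoposide rise was called under some alternatives given with its values.

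Quiescent cells showed a smaller shift with the same lean. In RNA-seq 5 of the 10 genes fell, HMGB1, HMGB2, HMGB3, HMGN2 and H2AZ1, where 10.4% of all genes were called lower, and HMGA2 rose, where 5.18% were called higher. The median of the 10 was -0.66. In Ribo-seq HMGB2, HMGB3, HMGN1 and H2AZ1 fell (14.6% of all genes were called lower) and HMGA2 rose (7.09% were called higher), with a median of -0.40. In these bulk samples, fewer cells expressing a gene and less RNA of it per cell cannot be told apart, and this holds for every change given here.

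**Figure D1:**
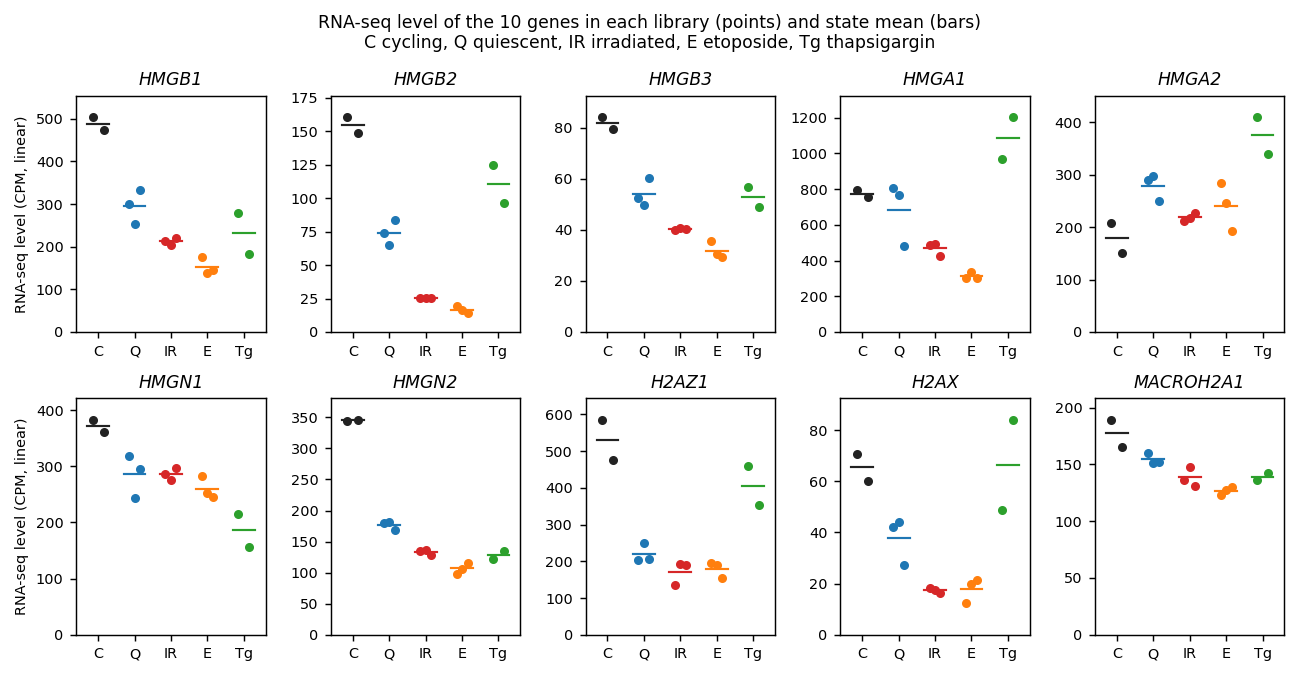
RNA-seq level in CPM on a linear axis from 0 for each of the 10 genes, with 1 point for each library and a bar for the mean of each state. HMGB2 falls from 161 and 149 CPM in cycling cells to between 14.3 and 25.7 CPM in the 6 senescent libraries, while HMGA2 has its 2 highest points in thapsigargin cells.

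HMGB2 (chr4:173331376-173334358, ENSG00000164104), the HMGB protein tied most closely to dividing cells, had the largest fold difference of the 10. Its RNA level was 161 and 149 CPM in the cycling libraries and 74.0, 65.0 and 83.6 CPM in the quiescent ones. It was 25.2, 25.7 and 25.4 CPM in irradiated cells, 19.4, 16.6 and 14.3 CPM in etoposide cells, and 125 and 96.0 CPM in thapsigargin cells. The 5 states did not overlap, in the order cycling, thapsigargin, quiescent, irradiated, etoposide. The log2 fold change against cycling cells was -1.06 ± 0.15 (SE) in quiescent cells (edgeR adjusted p = 0.000851), -2.61 ± 0.15 after radiation (9.94e-08) and -3.21 ± 0.16 after etoposide (1.11e-08), the last of these a 9.23-fold lower level. Senescent cells were also below quiescent ones, by -1.54 ± 0.14 after radiation (edgeR adjusted p = 8.95e-06) and -2.15 ± 0.14 after etoposide (2.44e-07).

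The footprints of HMGB2 followed the same order except in thapsigargin cells. They were at 285, 276 and 259.7 CPM in cycling cells, 152, 186 and 107 in quiescent cells, 51.8, 47.2 and 38.0 in irradiated, 27.5, 26.3 and 29.0 in etoposide, and 324 and 322 CPM in thapsigargin cells. No 2 states overlapped. The Ribo-seq log2 fold change was -2.58 ± 0.17 after radiation (edgeR adjusted p = 1.36e-07) and -3.31 ± 0.18 after etoposide (8.82e-09), and the thapsigargin value of 0.24 ± 0.18 was not called (adjusted p = 0.299). In RNA-seq HMGB2 fell by 0.49 on the log2 scale under thapsigargin (edgeR adjusted p = 0.0457), a call lost without thapsigargin RNA-seq replicate 2 (-0.29, adjusted p = 0.28), without either cycling RNA-seq library (-0.43 and -0.54), without etoposide RNA-seq replicate 2 or any 1 irradiated RNA-seq library (all -0.49), with RLE scaling (-0.47), with no filter on low counts (-0.49), and with only the groups compared (-0.45, adjusted p = 0.16).

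HMGB1 (chr13:30456704-30617597, ENSG00000189403) is the abundant HMGB protein that senescent cells have been described to release. Its RNA level was 504 and 473 CPM in cycling cells, 301, 253 and 332 in quiescent cells, 214, 205 and 221 in irradiated, 177, 138 and 146 in etoposide, and 280.0 and 183 CPM in thapsigargin cells. The cycling libraries were the highest, and the etoposide libraries lay below all others. The log2 fold change was -0.73 ± 0.17 in quiescent cells (edgeR adjusted p = 0.0109), -1.19 ± 0.17 after radiation (0.000117) and -1.67 ± 0.17 after etoposide (6.1e-06). The quiescent call was lost without cycling RNA-seq replicate 1 (-0.68, adjusted p = 0.097) or replicate 2 (-0.77, adjusted p = 0.053). Against quiescent cells, HMGB1 RNA was lower by -0.94 ± 0.15 after etoposide (edgeR adjusted p = 0.000322), and the smaller radiation difference of -0.47 ± 0.15 (0.0486) was lost in 9 of the 13 fits that left out 1 library and lowest in size without quiescent replicate 3 (-0.38).

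HMGB1 footprints were few, with 47 to 699 counts in a library. They were at 36.7, 39.9 and 42.6 CPM in cycling cells, 33.1, 33.0 and 26.9 in quiescent cells, 18.3, 24.9 and 13.4 in irradiated, 21.0, 17.4 and 23.1 in etoposide, and 29.4 and 50.1 CPM in thapsigargin cells. All 6 senescent libraries lay below all 6 others of cycling and quiescent cells, and the thapsigargin libraries spanned the cycling range. The Ribo-seq log2 fold change was -1.09 ± 0.22 after radiation (edgeR adjusted p = 0.00167) and -0.96 ± 0.21 after etoposide (0.00356). The quiescent value of -0.36 ± 0.20 was not called (edgeR adjusted p = 0.251).

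HMGB3 (chrX:150980507-150990771, ENSG00000029993), the third DNA-bending member, had a shallower fall. Its RNA level was 84.1 and 79.3 CPM in cycling cells, 52.3, 49.8 and 60.3 in quiescent cells, 40.1, 40.6 and 40.4 in irradiated, 35.4, 30.6 and 29.2 in etoposide, and 56.7 and 49.1 CPM in thapsigargin cells. Only the quiescent and thapsigargin libraries overlapped among neighbouring states. The log2 fold change was -0.59 ± 0.12 in quiescent (edgeR adjusted p = 0.00641), -1.02 ± 0.12 in irradiated (3.63e-05) and -1.36 ± 0.12 in etoposide cells (2.23e-06). The quiescent RNA call was lost without cycling RNA-seq replicate 1 (-0.55, adjusted p = 0.077). Footprints of HMGB3 were at 38.4, 34.6 and 39.6 CPM in cycling cells, 21.5, 27.1 and 20.0 in quiescent cells, 21.6, 17.4 and 19.4 in irradiated and 12.6, 11.2 and 12.7 CPM in etoposide cells, and fell by 0.71, 0.93 and 1.63 on the log2 scale (edgeR adjusted p = 0.00359, 0.000355 and 2.87e-06).

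**Figure D2:**
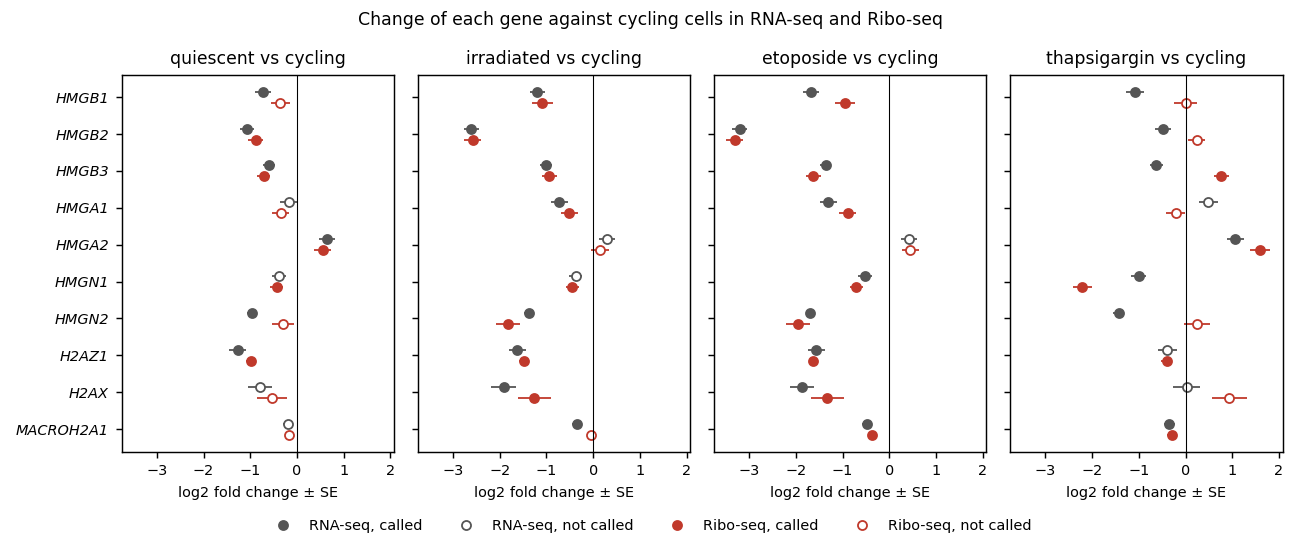
Log2 fold change against cycling cells (horizontal axis, with SE) of each of the 10 genes in RNA-seq (grey) and Ribo-seq (red), 1 panel for each state. Filled points are called at an adjusted p under 0.05. In the irradiated and etoposide panels the genes other than HMGA2 lie left of 0 in both assays, and in the thapsigargin panel HMGB3 falls in RNA-seq (-0.63) and rises in Ribo-seq (0.76).

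The 2 HMGA genes went apart. HMGA1 (chr6:34236873-34246231, ENSG00000137309) was at 795 and 756 CPM of RNA in cycling cells and at 807, 765 and 479.9 CPM in quiescent cells, where replicate 3 was the low one. It was at 489, 495 and 427 CPM in irradiated, 305, 335 and 303 in etoposide, and 972 and 1204 CPM in thapsigargin cells. The quiescent value (-0.18 ± 0.18, edgeR adjusted p = 0.569) was not called, while HMGA1 fell by 0.72 after radiation (0.00722) and by 1.30 after etoposide (9.64e-05). The radiation call was lost without cycling RNA-seq replicate 1 (-0.69, adjusted p = 0.057). The thapsigargin value of 0.49 ± 0.20 was not called (edgeR adjusted p = 0.0953), although both libraries lay above both cycling ones, and was called without quiescent replicate 3 (0.49, adjusted p = 0.014). Footprints of HMGA1 were at 323, 249.6 and 354 CPM in cycling cells, 215, 249.6 and 264 in quiescent cells, 197, 222 and 229 in irradiated, 199, 165 and 135 in etoposide, and 329 and 205 CPM in thapsigargin cells. They fell by 0.89 on the log2 scale after etoposide (edgeR adjusted p = 0.00189), and the fall of 0.52 after radiation (0.0361) was lost in 7 of 14 fits that left out 1 library, and stood at -0.37 without cycling Ribo-seq replicate 3.

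HMGA2 (chr12:65824460-65966291, ENSG00000149948), whose mRNA is a classic target of let-7 microRNAs, was not called lower in any state. Its RNA level was 207 and 151 CPM in cycling cells, 291, 297 and 250.4 in quiescent cells, 212, 218 and 227 in irradiated, 285, 246 and 193 in etoposide, and 410.2 and 339.9 CPM in thapsigargin cells. The quiescent, irradiated and thapsigargin libraries lay above the cycling ones, and the etoposide libraries overlapped them. HMGA2 rose by 0.64 ± 0.17 on the log2 scale in quiescent cells (edgeR adjusted p = 0.0232) and by 1.07 ± 0.19 under thapsigargin (0.0013). The senescent values of 0.29 ± 0.17 after radiation (95% interval -0.08 to 0.66) and 0.43 ± 0.17 after etoposide (0.06 to 0.80) were not called (edgeR adjusted p = 0.21 and 0.0696). The etoposide value was called as a rise with DESeq2 (0.45, adjusted p = 0.045), with the replicate block (0.49, 0.03), without cycling RNA-seq replicate 1 (0.67, 0.039) and without etoposide replicate 3 (0.57, 0.021). In Ribo-seq the etoposide value of 0.45 ± 0.19 (edgeR adjusted p = 0.0807) was called with DESeq2 (0.48, 0.048) and without cycling Ribo-seq replicate 3 (0.62, 0.038). The quiescent RNA call was lost without cycling RNA-seq replicate 2 (0.43, adjusted p = 0.25) and without quiescent replicate 1 (0.61, adjusted p = 0.051) or 2 (0.61, adjusted p = 0.055).

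HMGA2 footprints were at 33.9, 21.8 and 37.6 CPM in cycling cells, where replicate 2 was low. They were at 45.6, 46.4 and 44.4 CPM in quiescent cells, 30.2, 39.3 and 33.7 in irradiated, 43.1, 48.9 and 35.1 in etoposide, and 102 and 85.6 CPM in thapsigargin cells. The thapsigargin libraries were above all others, rising by 1.60 ± 0.21 on the log2 scale (edgeR adjusted p = 6.55e-05), a 3.03-fold higher level. The quiescent rise of 0.55 ± 0.18 (edgeR adjusted p = 0.0455) was lost in 8 of 14 fits that left out 1 library, with both strands counted (0.55), with only the groups compared (0.56) and with the replicate block (0.56, adjusted p = 0.064), and stood at 0.36 without cycling Ribo-seq replicate 2. Of 10 tested genes from a list of proteins that act on HMGA2 mRNA after transcription, 2 rose and 1 fell in thapsigargin RNA, beside 11.7% and 12.8% of all genes, too few to set apart from those shares. AGO2, the slicing Argonaute, was higher by 0.94 ± 0.22 (edgeR adjusted p = 0.00831), IGF2BP1, an mRNA-binding protein, by 0.53 ± 0.17 (0.0325), and DICER1, which cuts microRNAs from their precursors, was lower by -0.77 ± 0.14 (0.00125). The AGO2 and IGF2BP1 calls were lost without thapsigargin RNA-seq replicate 2 (0.74 and 0.35) and without cycling replicate 1 (0.90 and 0.52), and IGF2BP1 also without cycling replicate 2 (0.54). In etoposide RNA 3 of the 10 fell and 0 rose, beside 17.8% and 16.8% of all genes, too few to set apart from those shares. They were IGF2BP1 (-0.52), ELAVL1 (-0.44) and IGF2BP3 (-0.38), and each of these calls was lost without either cycling library. In quiescent and irradiated RNA edgeR called 0 of the 10, with 2 and 1 at an unadjusted p under 0.05. Of all genes, 10.4% were called lower and 5.18% higher in quiescent RNA, and 18.7% and 16.1% in irradiated RNA.

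The HMGN pair, which compete with linker histone H1 on nucleosomes, differed in the size of their fall. HMGN2 (chr1:26472440-26476642, ENSG00000198830) was at 345 and 346 CPM of RNA in cycling cells, 181, 182 and 169 in quiescent cells, 135, 136 and 128 in irradiated, 98.0, 107 and 116 in etoposide, and 122 and 135 CPM in thapsigargin cells. Among neighbouring states only irradiated and thapsigargin libraries overlapped. Its log2 fold change was -0.96 ± 0.10 in quiescent (edgeR adjusted p = 0.000219), -1.38 ± 0.10 in irradiated (4.63e-07) and -1.69 ± 0.10 in etoposide cells (4.92e-08). Those 3 calls held in every fit that left out 1 library. HMGN2 footprints were at 45.6, 52.3 and 56.0 CPM in cycling cells, 44.6, 49.7 and 30.8 in quiescent cells, 13, 11 and 19.4 in irradiated, 15.8, 8.25 and 15.6 in etoposide, and 58.3 and 63.7 CPM in thapsigargin cells. The senescent libraries lay well below the rest, and quiescent and cycling libraries overlapped. The Ribo-seq log2 fold change was -1.82 ± 0.26 after radiation (edgeR adjusted p = 0.000124) and -1.96 ± 0.26 after etoposide (5.05e-05), and senescent cells were below quiescent ones by -1.52 ± 0.26 and -1.66 ± 0.25 (0.00141 and 0.00025).

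HMGN1 (chr21:39342315-39349088, ENSG00000205581) was at 383 and 362 CPM of RNA in cycling cells, 318, 244 and 295 in quiescent cells, 287, 276 and 298 in irradiated, 283, 252 and 245 in etoposide, and 216 and 157 CPM in thapsigargin cells. The thapsigargin libraries were the lowest and the cycling ones the highest. The fall of 0.52 after etoposide was called (edgeR adjusted p = 0.0133), and was not without cycling RNA-seq replicate 1 (-0.48, adjusted p = 0.096). The quiescent and irradiated values, both -0.38 ± 0.14, were not called (edgeR adjusted p = 0.095 and 0.0586). The irradiated value was called lower with DESeq2 (-0.38, adjusted p = 0.042), with only the groups compared (-0.40, 0.001), with the replicate block (-0.38, 0.036) and in 4 of 13 fits that left out 1 library. The quiescent one was called without either thapsigargin library (both -0.40). Footprints of HMGN1 were at 72.7, 75.6 and 77 CPM in cycling cells, 60.9, 58.1 and 47.4 in quiescent cells, 56.2, 52.5 and 56.8 in irradiated and 38.5, 46.1 and 53.5 CPM in etoposide cells, all below the cycling libraries. They fell by 0.44, 0.44 and 0.71 on the log2 scale (edgeR adjusted p = 0.033, 0.022 and 0.00142). The quiescent call was lost in 9 of 14 fits that left out 1 library, among them those without any 1 cycling library (adjusted p = 0.068 to 0.13). The radiation call was lost without any 1 irradiated library (0.057 to 0.097) and without cycling Ribo-seq replicate 2 (0.072) or 3 (0.086).

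Of the variant histones, H2AZ1 (chr4:99948088-99950275, ENSG00000164032), the main gene for H2A.Z, was low in every arrested state. Its RNA level was 585 and 477 CPM in cycling cells, 204, 250.1 and 206 in quiescent cells, 134, 192 and 191 in irradiated, 195, 191 and 153 in etoposide, and 458 and 353 CPM in thapsigargin cells. The log2 fold change was -1.27 ± 0.18 in quiescent (edgeR adjusted p = 0.000851), -1.62 ± 0.18 in irradiated (1.55e-05) and -1.56 ± 0.18 in etoposide cells (1.94e-05). In RNA the senescent states did not differ from quiescence beyond the threshold, at -0.35 ± 0.16 (95% interval -0.704 to -0.002, edgeR adjusted p = 0.152) and -0.29 ± 0.16 (-0.64 to 0.06, 0.168), although the libraries did not overlap. H2AZ1 footprints were at 1116, 946 and 925 CPM in cycling cells, 486, 568 and 451 in quiescent cells, 338, 364 and 365 in irradiated, 312, 340.5 and 314 in etoposide, and 731 and 776 CPM in thapsigargin cells. In footprints the senescent states were below quiescence, by -0.50 ± 0.10 after radiation (edgeR adjusted p = 0.00433) and -0.64 ± 0.10 after etoposide (0.0003).

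H2AX (chr11:119093874-119095465, ENSG00000188486), whose phosphorylated protein flags DNA breaks, was at 70.8 and 60.1 CPM of RNA in cycling cells and at 42.2, 44.2 and 27.1 CPM in quiescent cells, with replicate 3 lowest. It was at 18.2, 17.6 and 16.3 CPM in irradiated, 12.3, 19.8 and 21.5 in etoposide, and 48.8 and 84.0 CPM in thapsigargin cells. Its RNA fell by 1.92 on the log2 scale after radiation (SE 0.27, edgeR adjusted p = 0.000103) and by 1.87 after etoposide (SE 0.26, 0.000113). The quiescent value of -0.79 ± 0.26 was not called (edgeR adjusted p = 0.0576), but was with DESeq2 (-0.80, adjusted p = 0.024) and in 3 of 13 fits that left out 1 library. In RNA both senescent states were below quiescence, by -1.12 ± 0.24 (edgeR adjusted p = 0.00621) and -1.08 ± 0.24 (0.00305). The Ribo-seq values against quiescence, -0.73 ± 0.35 and -0.79 ± 0.34, were not called (edgeR adjusted p = 0.204 and 0.0905), although the libraries did not overlap. In footprints, cycling replicate 1 stood apart at 106 CPM, beside 35.6 and 51.4 CPM in the other cycling libraries. The quiescent libraries were at 42.1, 35.3 and 55.6 CPM, the irradiated at 20.2, 27.2 and 34.0, the etoposide at 24.7, 29.3 and 22.7, and the thapsigargin at 152 and 94.5 CPM. The Ribo-seq falls of 1.26 after radiation (edgeR adjusted p = 0.0123) and 1.33 after etoposide (0.00925) stood at -0.69 (adjusted p = 0.069) and -0.76 (0.052) without cycling Ribo-seq replicate 1, and the radiation call was also lost without irradiated Ribo-seq replicate 1 (-1.07, adjusted p = 0.066).

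Genes that write, read or erase the H2AX phosphate were mixed. Of 16 tested, 1 rose and 3 fell in irradiated RNA, where 16.1% and 18.7% of all genes did, and 2 rose and 4 fell in etoposide RNA, where 16.8% and 17.8% did. The 3 that fell after radiation are a share near that of all genes. BRCA1, a repair protein drawn to marked breaks, fell by 1.44 and 1.69 on the log2 scale (edgeR adjusted p = 4.02e-05 and 8.74e-06), and MDC1, which binds phosphorylated H2AX directly, fell by 1.01 and 1.14 (0.019 and 0.0103). PPM1D, a phosphatase that acts on H2AX, was higher by 0.67 after radiation (0.000583) and by 0.34 after etoposide (0.0347), the second of which was lost without any 1 of the cycling or etoposide libraries and without irradiated replicate 3. The MDC1 calls were lost without cycling RNA-seq replicate 2 (-0.84 and -0.97), and the radiation call also without irradiated replicate 2 (-0.86). MRE11, of the complex that senses breaks, fell by 0.50 after etoposide (0.0195), not so without cycling replicate 1 (-0.33) or etoposide replicate 2 (-0.46) or 3 (-0.44). In thapsigargin RNA edgeR called 0 of the 16, with 2 at an unadjusted p under 0.05, where 12.8% of all genes were called lower and 11.7% higher.

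MACROH2A1 (chr5:135334381-135399887, ENSG00000113648) moved least of the 10, with state means within 1.39-fold of each other in RNA. It was at 189 and 165 CPM in cycling cells, 160.0, 151 and 152 in quiescent cells, 137, 148 and 131 in irradiated, 123, 128 and 130.4 in etoposide, and 136 and 142 CPM in thapsigargin cells. It fell by 0.36 after radiation (edgeR adjusted p = 0.0144), by 0.48 after etoposide (0.00236) and by 0.35 under thapsigargin (0.0357). Without cycling RNA-seq replicate 1 all 3 calls were lost, at -0.26, -0.38 and -0.25 (adjusted p = 0.2, 0.054 and 0.27). The radiation call was also lost without irradiated replicate 3 (-0.32), and the thapsigargin call in 8 of 13 such fits, with both strands counted (-0.30), with no filter on low counts (-0.35), with only the groups compared (-0.31, adjusted p = 0.24) and with the replicate block (-0.35, 0.052). MACROH2A1 footprints were at 177, 177 and 174 CPM in cycling cells, 169.6, 154 and 143 in quiescent cells, 166, 173 and 172 in irradiated, 143, 133 and 134 in etoposide, and 150.4 and 136 CPM in thapsigargin cells. The etoposide fall of 0.36 was called in Ribo-seq (edgeR adjusted p = 0.00486), and the radiation value of -0.05 ± 0.09 was not (95% interval -0.23 to 0.14).

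**Figure D3:**
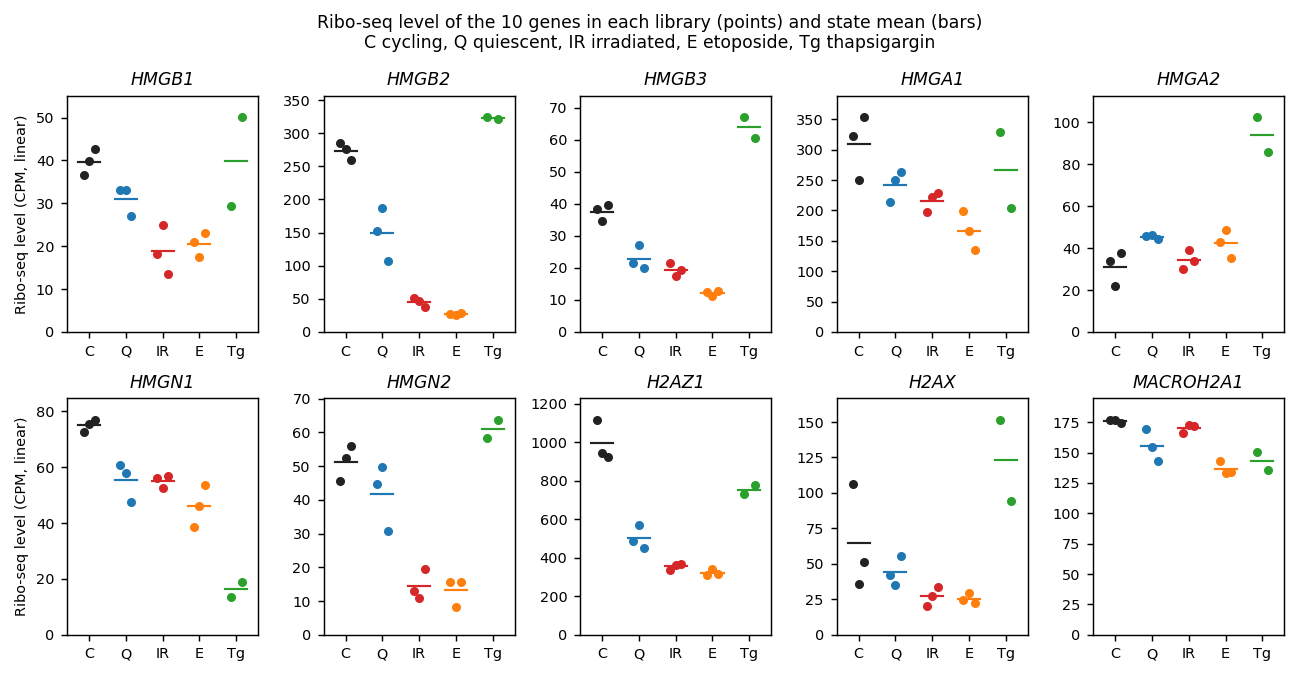
Ribo-seq level in CPM on a linear axis from 0 for each of the 10 genes, with 1 point for each library and a bar for the mean of each state. Cycling replicate 1 of H2AX (106 CPM) lies far above the other cycling libraries, and HMGN1 has its lowest values, 13.6 and 18.8 CPM, in thapsigargin cells.

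Against quiescent cells, 6 of the 10 genes fell in irradiated RNA (9.71% of all genes were called lower and 9.0% higher) and 7 in etoposide RNA (20.6% and 21.0%), with none higher. In Ribo-seq 4 fell in irradiated (7.64% and 6.92%) and 6 in etoposide cells (16.1% and 19.2%). HMGB1, HMGB2 and HMGN2 fell in both senescent states in both assays. The HMGB1 falls in Ribo-seq, of 0.73 and 0.60 (edgeR adjusted p = 0.0417 and 0.042), were each lost in 9 of 14 fits that left out 1 library and with the replicate block (-0.74 and -0.59, adjusted p = 0.051 and 0.052), and the radiation one also with only the groups compared (-0.74, 0.066). In RNA-seq HMGA1 (-0.54) and HMGB3 (-0.42) after radiation lost their calls in 7 and 4 of 13 such fits, and MACROH2A1 (-0.28) after etoposide in 3. HMGA1 in etoposide Ribo-seq (-0.54) lost its call in 4 of 14. The radiation call of HMGA1 in RNA-seq was also lost with only the groups compared (edgeR adjusted p = 0.072). Its irradiated libraries (427 to 495 CPM) overlapped the quiescent ones (479.9 to 807 CPM). The MACROH2A1 call was also lost with only the groups compared and with no filter on low counts. HMGA2 and HMGN1 were called in neither senescent state against quiescence in either assay. The HMGN1 value in irradiated cells was 0.01 ± 0.13 in RNA (95% interval -0.27 to 0.29) and -0.01 ± 0.14 in Ribo-seq (-0.31 to 0.29).

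The 2 kinds of senescence were compared directly. In RNA-seq 5 of the 10 genes were higher in irradiated than in etoposide cells, where 9.65% of all genes were called higher and 12.8% lower, and none of the 10 was lower. The log2 differences were 0.60 ± 0.14 for HMGB2 (edgeR adjusted p = 0.00744), 0.58 ± 0.16 for HMGA1 (0.0213), 0.48 ± 0.15 for HMGB1 (0.0394), 0.35 ± 0.11 for HMGB3 (0.0431) and 0.32 ± 0.09 for HMGN2 (0.026). In Ribo-seq 3 were higher (7.77% of all genes were called higher and 13.9% lower), HMGB2 by 0.73 ± 0.18 (0.0101), HMGB3 by 0.69 ± 0.17 (0.00932) and MACROH2A1 by 0.32 ± 0.09 (0.0183). Leaving out irradiated Ribo-seq replicate 1 took all 3 Ribo-seq calls past the threshold (0.62, 0.60 and 0.33, adjusted p = 0.063, 0.059 and 0.052). In RNA-seq the calls of HMGB1, HMGB3, HMGA1 and HMGN2 were lost in 7, 9, 4 and 5 of 13 fits that left out 1 library, and HMGB2 kept its call in all 13 such fits. For H2AZ1 and H2AX the RNA differences were -0.06 ± 0.16 and -0.05 ± 0.24, with 95% intervals of -0.41 to 0.29 and -0.57 to 0.48.

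Translational efficiency (TE) is the number of footprints per mRNA. A change in it was taken from a joint model of the 27 libraries, as the difference between the footprint and the mRNA change, for 11712 genes. No change in TE was called for any of the 10 genes in quiescent, irradiated or etoposide cells against cycling cells, or between the senescent states. In those 4 comparisons, in that order, the count of the 10 genes at an unadjusted p under 0.05 was 1, 1, 1 and 2, and DESeq2 also called 0 in each. Calls over all genes were as rare there, at 0.00854% higher and 0.0% lower in quiescent cells, 0.0427% and 0.00854% in irradiated, 0.0256% and 0.0427% in etoposide cells, and 0.0% in both directions between the senescent states. The TE change of HMGB2 was 0.15 ± 0.24 after radiation (95% interval -0.36 to 0.65) and -0.15 ± 0.25 after etoposide (-0.65 to 0.36). The TE change of H2AX was 0.77 ± 0.47 after radiation (-0.19 to 1.74).

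Under thapsigargin the RNA and footprints of several genes went apart. In RNA-seq 6 of the 10 genes fell (12.8% of all genes were called lower) and HMGA2 rose (11.7% were called higher). In Ribo-seq HMGN1, H2AZ1 and MACROH2A1 fell (24.4%) and HMGB3 and HMGA2 rose (20.1%). TE rose for HMGB1, HMGB3 and HMGN2 (7.85% of all genes were called higher) and fell for HMGN1 (12.8%). The median TE change was 0.60 for the 10 genes and -0.15 over all genes.

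HMGN2 had the largest TE rise, 1.65 ± 0.31 on the log2 scale (edgeR adjusted p = 0.000687), with RNA lower by -1.43 ± 0.12 (2.86e-06) and footprints at 0.25 ± 0.28 (0.488). For HMGB3 TE rose by 1.36 ± 0.22 (0.00014). Its footprints were at 67.0 and 60.5 CPM, above all 3 cycling libraries, a rise of 0.76 ± 0.17 (0.00252), while its RNA fell by 0.63 (0.00547), a call lost with only the groups compared (-0.59, adjusted p = 0.064). For HMGB1 TE rose by 1.05 ± 0.32 (edgeR adjusted p = 0.0222), with RNA lower by -1.08 ± 0.19 (0.00124) and footprints at 0.00 ± 0.25. The HMGB1 TE call was lost without thapsigargin Ribo-seq replicate 2 (0.60), without thapsigargin RNA-seq replicate 2 (0.81) and without cycling RNA-seq replicate 1 (1.00). It was also lost with only the groups compared (1.02, edgeR adjusted p = 0.086). The same held with the RNA-seq and Ribo-seq libraries of a state paired by replicate number (1.14, edgeR adjusted p = 0.05).

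HMGN1 went the other way. Its footprints were at 13.6 and 18.8 CPM under thapsigargin, from 25 and 36 counts, and lay below every other library. The Ribo-seq log2 fold change was -2.21 ± 0.20 (edgeR adjusted p = 2.5e-06), a 4.62-fold lower level, the RNA change was -1.0 ± 0.16 (0.000664) and the TE change was -1.24 ± 0.28 (0.00327). TE values of the other genes were not called: H2AX at 0.89 ± 0.50, HMGB2 at 0.70 ± 0.26, HMGA2 at 0.51 ± 0.29, MACROH2A1 at 0.02 ± 0.17, H2AZ1 at -0.04 ± 0.24 and HMGA1 at -0.73 ± 0.30 (edgeR adjusted p = 0.216, 0.0604, 0.231, 0.944, 0.923 and 0.0832). HMGB2 TE was called higher with DESeq2 (0.77, adjusted p = 0.024), with RLE scaling (0.77, 0.034), with both strands counted (0.76, 0.035) and in 8 of 27 fits that left out 1 library. HMGA2 TE was called higher with the assays paired by replicate number (0.68, edgeR adjusted p = 0.024). H2AX TE was called higher without cycling Ribo-seq replicate 1 (1.45, 0.024), and HMGA1 TE lower in 3 of 27 fits that left out 1 library. H2AX footprints, at 0.93 ± 0.38 (edgeR adjusted p = 0.0571), were called higher with DESeq2 (0.93, 0.041), with the replicate block (1.00, 0.048) and in 4 of 14 fits that left out 1 library. H2AZ1 footprints fell by 0.40 under thapsigargin (edgeR adjusted p = 0.011), a call lost without thapsigargin Ribo-seq replicate 1 (-0.37, adjusted p = 0.061) and at -0.79 with reads of both strands counted. The MACROH2A1 fall in thapsigargin Ribo-seq (-0.30, adjusted p = 0.0266) was lost in 9 of 14 fits that left out 1 library.

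**Figure D4:**
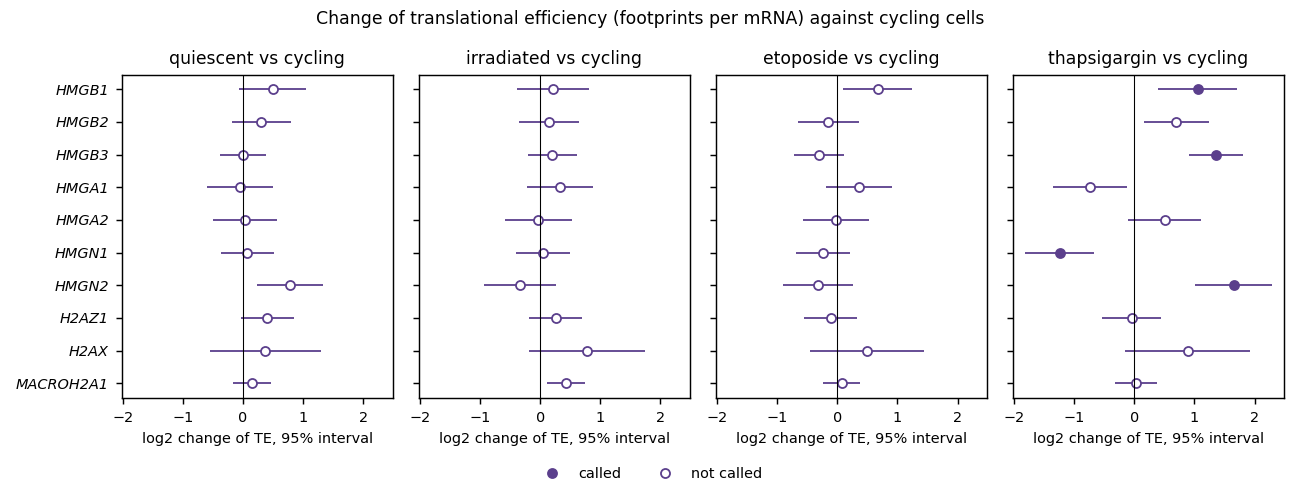
Log2 change of translational efficiency against cycling cells with its 95% interval for each of the 10 genes, 1 panel for each state; filled points are called. Called points occur only in the thapsigargin panel of these 4 comparisons, at 1.05, 1.36 and 1.65 for HMGB1, HMGB3 and HMGN2 and at -1.24 for HMGN1.

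HMGB1, HMGN2, HMGN1 and HMGB3 have 48, 38, 32 and 29 annotated pseudogenes among the listed IDs, so their counts are uncertain wherever a read can fit a copy. The share of counts on pseudogenes moved with thapsigargin in RNA-seq for HMGB1 and HMGN2. It was 12.6% and 13.1% for HMGN2 in the thapsigargin libraries, against 1.51% to 2.48% in all other RNA-seq libraries, and 4.99% and 6.08% for HMGB1, against 1.2% to 3.11%. For HMGN1 it was 0.662% and 0.856% there, against at most 0.17% elsewhere, and for HMGB3 it was at most 1.24% in any RNA-seq library. With pseudogene counts added to each gene, the thapsigargin TE change was 0.78 for HMGB1, which was no longer called (edgeR adjusted p = 0.062), 1.43 for HMGN2 (0.0016), 1.32 for HMGB3 (0.00022) and -1.26 for HMGN1 (0.0028). Reads that mapped to several places were in no gene's count, and their part in these values was not tested. In Ribo-seq the HMGB1 share was 16.5% to 18.2% in the cycling libraries (75 to 123 pseudogene counts) and 9.69% to 14.2% in quiescent ones. It was 7.14% to 19.0% in irradiated, 9.52% to 15.2% in etoposide and 1.03% to 8.5% in thapsigargin cells, on 1 to 20 counts. For HMGN2 it was 5.91% to 13.2% in cycling and 2.4% to 7.76% in thapsigargin cells, and at most 14.7% in any library. These differences between states limit the footprint and TE values of HMGB1 and HMGN2.

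**Figure D5:**
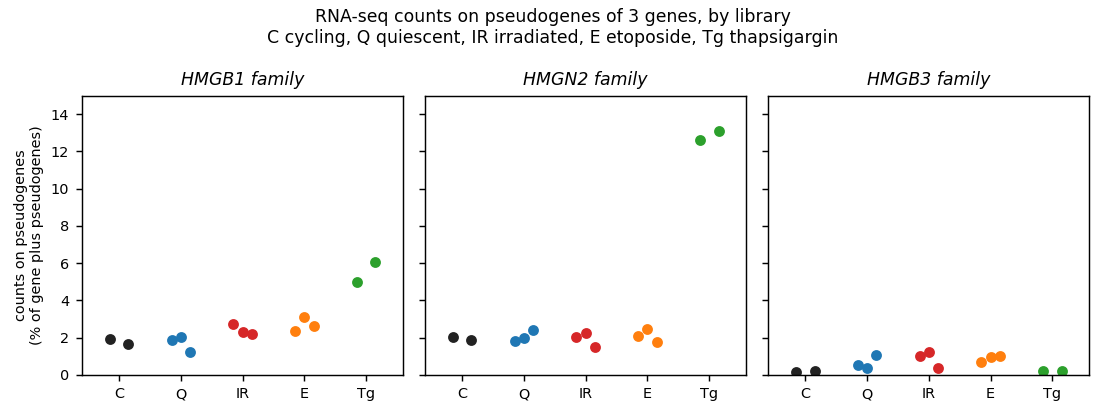
Share of RNA-seq counts on annotated pseudogenes, in percent of the counts on the gene and its pseudogenes, by library for HMGB1, HMGN2 and HMGB3. The thapsigargin libraries lie at 12.6% and 13.1% for HMGN2, where no other library is above 2.48%, and HMGB3 shows no such rise.

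Other genes of the same families gave context. Of 8 tested other variant and replacement histone genes, 4 fell and 1 rose in irradiated RNA (18.7% and 16.1% of all genes), and 7 fell and 1 rose in etoposide RNA (17.8% and 16.8%). CENPA, the centromeric H3 variant, fell by 4.11 and 4.62 on the log2 scale (edgeR adjusted p = 8.88e-08 and 1.76e-08), and H2AZ2, the second H2A.Z gene, fell by 0.98 and 1.33 (6.86e-06 and 2.77e-07). H1-10, a replication-independent linker histone, fell by 1.01 after etoposide (0.00563). H2AJ, an H2A variant, was the 1 gene of the list that rose, by 0.74 ± 0.16 and 0.90 ± 0.16 (0.00287 and 0.000789). In thapsigargin RNA H3-3A, 1 of 2 genes for histone H3.3, stood at 4.13 CPM against 75.7 CPM in cycling cells (-4.19 ± 0.20, edgeR adjusted p = 6.24e-08). Reads mapping to several places made up 38.0% and 19.7% of these thapsigargin libraries and 13.2% and 33.4% of the cycling ones. Their part in the H3-3A value was not tested. H2AZ2 fell by 0.45 there (0.00956), a call lost without cycling replicate 1 (-0.42). MACROH2A2, the other macroH2A gene, fell by 0.93 (0.000381).

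Of 16 tested other HMG-box and HMGN genes, 3 fell and 1 rose in irradiated RNA, the first a share near the 18.7% of all genes (16.1% rose). In etoposide RNA 6 fell and 0 rose, beside 17.8% and 16.8% of all genes. SSRP1, the HMG-box subunit of the FACT histone chaperone, fell by 1.18 and 1.45 (edgeR adjusted p = 8.24e-06 and 9.77e-07), and TOX fell by 0.50 and 2.16 (0.0111 and 7.2e-08), the first of these not without either cycling library (-0.54 and -0.46). TFAM, which packages mitochondrial DNA with HMG boxes, fell by 0.57 and 0.66 (0.0366 and 0.0182), calls lost without cycling RNA-seq replicate 1 (-0.48 and -0.57) and without several other libraries, and TOX2 fell by 1.62 after etoposide (0.0164), a call lost without cycling replicate 2 (-1.16) or etoposide replicate 1 (-1.44) or 2 (-1.46). In thapsigargin RNA 3 of the 16 fell and 2 rose, beside 12.8% and 11.7% of all genes, too few to set apart from those shares. The 2 that rose were HMGXB3 (0.86, edgeR adjusted p = 0.000286) and CIC (1.29, 0.0165). The CIC call was lost without thapsigargin replicate 2 (0.72) or cycling replicate 1 (0.93). Of 28 histone chaperones and exchange factors, 10 fell and 2 rose in irradiated RNA (18.7% and 16.1% of all genes) and 11 fell and 1 rose in etoposide RNA (17.8% and 16.8%). All 4 named by size fell in both states: HJURP, which loads CENP-A (-2.79 and -3.33), ASF1B, an H3-H4 chaperone (-2.75 and -2.61), CHAF1B, a subunit of CAF-1 (-2.02 and -2.49), and DEK (-1.18 and -1.77, edgeR adjusted p from 4.92e-08 to 0.000464 for these 8 values). In thapsigargin RNA 5 of the 28 fell and 2 rose (12.8% and 11.7% of all genes), NASP (-0.65 ± 0.16, adjusted p = 0.00978) and ASF1A (-0.85 ± 0.28, 0.0396) among those that fell. NASP lost its call without cycling replicate 1 (-0.60) or thapsigargin replicate 1 (-0.43), and ASF1A in 7 of 13 fits that left out 1 library, with -0.47 without thapsigargin replicate 2.

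Of 7 tested receptors and extracellular partners of HMGB1, 2 fell in irradiated RNA (18.7% of all genes), and 1 fell and 2 rose in etoposide RNA (17.8% and 16.8%), too few to set apart from those shares. CXCL12, a chemokine that forms a complex with HMGB1, fell by 2.59 and 2.80 on the log2 scale (edgeR adjusted p = 1.62e-06 and 5.69e-07) and by 1.65 under thapsigargin (0.000365). LY96, a co-receptor of TLR4, was higher by 0.61 after etoposide (0.047), a call lost without any 1 of the cycling, irradiated or etoposide libraries. CD24 and THBD were at most 2.73 CPM on average in any state. As references, all 14 proliferation genes fell in irradiated RNA and 13 in etoposide RNA (18.7% and 17.8% of all genes). Among them were MKI67 (-3.41 and -4.60), MYBL2 (-3.76 and -4.42), LMNB1 (-3.54 and -4.15) and FOXM1 (-3.05 and -3.90). In quiescent RNA 11 fell (10.4% of all genes). In thapsigargin RNA 1 fell, LMNB1, too few to set apart from the 12.8% of all genes. Of 6 arrest genes, 5 rose and 1 fell after radiation (16.1% and 18.7% of all genes). After etoposide 4 rose and 1 fell (16.8% and 17.8%). CDKN1A, the p53-induced p21, rose by 1.69 and 1.94, CDKN2B by 1.17 and 1.02 and GDF15 by 0.91 and 2.36, and CDKN1B was the 1 that fell (-0.63 and -1.12), the first value not called without cycling replicate 2 (-0.58).

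The genes whose RNA pattern lay closest to each member were found by the root mean square (RMS) difference of centred log2 CPM over the 13 RNA-seq libraries, for the 9 genes whose state means spanned over 1 log2 unit. This is a description over libraries that share depth and scaling. The closest gene was PTTG1 for HMGB2 (RMS 0.169, against a median of 1.251 over all genes), SKA2 for HMGB3 (0.084, median 0.562), FSD1 for HMGA1 (0.108, median 0.706) and ZNF805 for HMGA2 (0.158, median 0.508). It was CENPN for H2AZ1 (0.146, median 0.721) and POC1A for H2AX (0.194, median 0.913). The next closest genes were GPSM2 and TMPO for HMGB2, ANP32E and RANBP1 for HMGB3, CAPG and TONSL for HMGA1, and NAV3 and REPS2 for HMGA2. They were QRICH1 and DTYMK for H2AZ1, and NRM and MCM2 for H2AX. Among the 3 closest genes were HAUS1 (0.175) and HMGB3 (0.177) for HMGB1, CEP20 (0.126) and FDXACB1 (0.127) for HMGN1, and SEPHS1 (0.21) and ARRB2 (0.218) for HMGN2, where the medians over all genes were 0.657, 0.462 and 0.646. Among the 10 genes themselves HMGB1 and HMGB3 were the closest pair (0.177), followed by HMGB1 and HMGN2 (0.245).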

How the data were processed

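RNA-seq and Ribo-seq libraries of 5 states of IMR90 cells were grouped by their titles in the labels, also where another label calls the thapsigargin RNA-seq libraries ribosome-protected fragments. Per the labels' protocols, material for both assays came from polysome lysate and was depleted of rRNA. The deposited files hold the authors' raw counts of reads per gene in the layout of STAR, for both strands, the forward and the reverse strand. The submitters' processing notes name bcl2fastq, STAR 2.7.10b, DESeq2 1.36.0 and the build hg38, with no annotation given in the sources used here. Reads mapping to several places, ambiguous reads and reads outside genes are summary lines of each file and were left out: unmapped reads held 1.35% to 40.6% and multimapping reads 9.43% to 66.9% of a library.

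The reverse-strand column was read for RNA-seq and the forward-strand column for Ribo-seq, over the 60534 IDs of both gene lists. Symbols came from a gene name table, and biotypes and coordinates from RefSeq (GRCh38.p14). Protein-coding genes (19310 IDs) that passed filterByExpr entered edgeR 4.0.16 under R 4.3.3 (TMM scaling, robust quasi-likelihood F tests, all 5 states in each fit, two-sided, Benjamini-Hochberg adjustment). TE came from 1 model over both assays, through the term for assay by state. In the TE model RNA-seq files follow 1 gene list and the Ribo-seq files both. The intervals are 95% intervals of the fitted log2 fold change. CPM are counts per 1000000 after TMM scaling, which sets the average change to about 0 and hides a change of all genes alike. The fits were tested on simulated data. No levels were compared between genes. Library sizes ranged from 1936976 to 57119841 gene counts, and low Ribo-seq counts (25 at the least among the 10 genes) limit precision.

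The 10 genes and all lists were chosen with earlier results of these data known. Beside the 10, each list gave up to 4 genes with the largest change among those called in irradiated or etoposide RNA and up to 2 more called in thapsigargin RNA, and each of the 10 with a span over 1 log2 unit gave its 3 closest genes by RNA pattern, some of which are not reported here. Alternatives were DESeq2 1.42.0, RLE scaling, no filter on low counts, only the groups compared, both strands counted, pseudogene counts added, a replicate block, and leaving out each library. Within an assay the replicate block was a term for the replicate number. For TE it was a term for each state and number, which pairs the RNA-seq and Ribo-seq library.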

Additional observations from a re-analysis of the deposited data

Results flagged for a closer look

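Pseudogene counts, which no comparison used on their own, reached 6.08% of the counts on HMGB1 and its pseudogenes and 13.1% of those on HMGN2 and its pseudogenes in RNA-seq. Both highest shares were in thapsigargin cells, and the cycling libraries held at most 1.92% and 2.05%.

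The change of HMGB2 against cycling cells differed between radiation and etoposide by 0.60 on the log2 scale in RNA-seq and by 0.73 in Ribo-seq, by a test of the difference itself (edgeR adjusted p = 0.00744 and 0.0101). That of HMGB3 differed by 0.35 in RNA-seq and by 0.69 in Ribo-seq (edgeR adjusted p = 0.0431 and 0.00932). The HMGB2 and HMGB3 differences in Ribo-seq were not called without irradiated Ribo-seq replicate 1 (0.62 and 0.60).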

How the results depend on the processing

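Of the values of the 10 genes under the alternatives, 4342 stayed on their side of the threshold, 178 lost and 49 gained a call, and 1 reversed: MACROH2A1 in thapsigargin Ribo-seq stood at 0.0229 with both strands counted (adjusted p = 0.88). Counted on both strands, MACROH2A1 had 61.4% to 86.9% of its stranded Ribo-seq count in a library, and H2AZ1 51.8% to 76.4%. The cause of the reversal was not tested. The number of the 10 genes called changed by over 1.5 times with only the groups compared, to 4 in thapsigargin RNA and 3 in quiescent Ribo-seq, and in irradiated against etoposide RNA to 3 with RLE scaling and to 3 with no filter. With 1 library left out, called genes numbered 4 to 8 (quiescent), 6 to 9 (irradiated), 8 to 10 (etoposide) and 5 to 8 (thapsigargin) against cycling in RNA-seq, and 3 to 5, 5 to 8, 8 to 10 and 4 to 6 in Ribo-seq. Against quiescence they were 3 to 6 (irradiated) and 6 to 7 (etoposide) in RNA-seq, and 3 to 4 and 4 to 7 in Ribo-seq, and for irradiated against etoposide 1 to 5 and 0 to 3. For TE they were 3 to 5 under thapsigargin and 0 to 0 elsewhere. Where this left 1 library in a state, it was taken to vary like the others.

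Whether replicate numbers pair the libraries was not settled. Deviations of same-numbered libraries had a median correlation of 0.03 within RNA-seq (23 pairs) and 0.02 within Ribo-seq (26 pairs). Between the RNA-seq and Ribo-seq library of a state it was 0.10, from -0.02 to 0.58, with 6 of 13 pairs over 0.1. For different numbers the median was -0.05, with 2 of 24 over 0.1. Deviations were taken from the mean of each group and sum to 0 within it. Higher values for same numbers therefore push those for different numbers down, and the pairs are not separate values. These figures neither show nor exclude pairing between the assays. The TE model was fitted unpaired. As an alternative, the RNA-seq and Ribo-seq library of the same state and number were paired in it. Cycling Ribo-seq replicate 3 has no RNA-seq partner and adds nothing to that fit. So paired, TE calls over all genes were 3 (irradiated), 13 (etoposide) and 1 (irradiated against etoposide), beside 6, 8 and 0. Counts over all genes with only the groups compared were 852 (quiescent RNA, beside 2069), 1512 (thapsigargin RNA, beside 3262), 6023 (etoposide Ribo-seq, beside 4003), 4134 (irradiated against etoposide Ribo-seq, beside 2551), and for TE 0, 727, 29, 1066 and 594 (beside 1, 6, 8, 2421 and 0). DESeq2 gave 6, 32, 40 and 6 TE calls in quiescent, irradiated, etoposide and irradiated against etoposide. RLE scaling and both strands gave 0 TE calls in quiescence (beside 1). With 1 library left out, counts over all genes ran in RNA-seq from 706 to 2377 (quiescent), 2778 to 5245 (irradiated), 2606 to 5204 (etoposide) and 1594 to 3821 (thapsigargin) against cycling, 1440 to 2956 for irradiated against quiescent and 1840 to 3547 against etoposide. In Ribo-seq they ran from 1558 to 3617 (quiescent), 939 to 2540 (irradiated against quiescent) and 1500 to 3488 (irradiated against etoposide), and for TE from 0 to 3, 1 to 36, 5 to 12 and 1555 to 3666 against cycling (quiescent, irradiated, etoposide, thapsigargin) and 0 to 13 for irradiated against etoposide.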
